A study of Homo sapiens with 24 samples.

Results

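The p53 target genes described here are a list of 34 genes, most of which the transcription factor p53 is known or reported to switch on. The list also holds relatives of such genes, among them RPS27. They were found by gene symbol on the array, with the brightest probe set standing for each gene. Of the 34, 31 were measured among 18239 genes. BTG2, FDXR and CCNG1P1 were not analysed here. The cells are HCT116, a widely used line from a human colon carcinoma. Parental cells, the untransduced controls of the labels, were set against ESR2 cells, a puromycin-selected pool that carries full-length ESR2, the gene of estrogen receptor beta, fused to a HaloTag and delivered with GFP by a lentivirus. Each was kept in normoxia or in hypoxia, with no added estradiol or with 10 nM 17β-estradiol, the principal estrogen of the body, given in phenol-red-free medium with charcoal-stripped serum. These 8 groups have 3 arrays each, 24 in all. A vector control, the medium of the groups without estradiol and the length of the hypoxia were not given in the sources used here, so the receptor and the transduction with its selection cannot be told apart. Values are log2 signals, on which a difference of 1 is a 2-fold difference. The question of the series is how estrogen receptor beta changes what hypoxia does in colorectal cancer cells.

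p53 is held at a low level by MDM2, a ubiquitin ligase that is itself a p53 target, and accumulates when DNA damage, nucleolar stress or other stress loosens this loop. Its targets stop the cell cycle (CDKN1A), start apoptosis through death receptors and mitochondria (FAS, TNFRSF10B), repair DNA (DDB2, XPC), adjust metabolism (TIGAR) and switch p53 off again (MDM2, PPM1D). Many of these genes also answer to other factors in hypoxia and in nutrient stress.

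ESR2 mRNA itself read 3.35, 3.54 and 3.52 on the arrays of parental cells in normoxia and 4.89, 4.03 and 4.63 on those of ESR2 cells. The groups did not overlap, and the difference was 1.05 (SE 0.13, adjusted p = 6.44e-06). Parental cells were under the median signal of an array (4.07 to 4.13), which makes this a lower limit. Of its 8 probe sets, 4 showed no such difference in normoxia, at -0.016, -0.11, 0.086 and -0.11. On the brightest it was 0.97 (SE 0.13, adjusted p = 1.49e-05) in normoxia with estradiol. In hypoxia it was 0.64 (SE 0.13, adjusted p = 0.000411), and in hypoxia with estradiol 0.46 (SE 0.13, adjusted p = 0.00608). Of 9 colon epithelium markers, 6 were above the array median in every group, and of 8 fibroblast markers 0 were. Of 7 markers of the embryonic kidney line used to package viruses, 1 or 2 were, and of 6 measured leukocyte markers 2. Array means of the leukocyte markers were between 3.76 and 4.04 in 7 groups and between 4.32 and 4.43 in hypoxic ESR2 cells with estradiol. Of these 6 markers, which include the hemoglobin gene HBB, 4 were higher there than in parental cells of the same setting. The mean of CD68 was 7.23 there and 5.81 in those parental cells, and that of LYZ 4.05 and 3.02. Smaller differences were seen for HBB (5.58 and 5.26), PTPRC (2.81 and 2.57), CD3E (3.96 and 3.88) and CD14 (2.67 and 2.66). The part of these markers in the results below was not tested. The RNA length index, a name used here as a label only, is the mean 3′ minus 5′ signal of the actin, dap and thr control probe sets. It was 4.34 on replicate 2 of parental normoxia and 2.60 to 2.65 on the other arrays of that group. In hypoxic ESR2 cells it was 3.42 to 4.01 with estradiol and 2.0 to 2.19 without it. The GAPDH difference, which the index leaves out, was 0.74 on that replicate of parental normoxia. In hypoxic ESR2 cells it was -0.0099 to 0.074 with estradiol and -0.22 to -0.12 without it. The dap and thr probe sets detect control transcripts of Bacillus subtilis, so these parts of the index do not measure the cells' own RNA. In hypoxic ESR2 cells the mean dap difference was 3.57 with estradiol and 2.03 without it, and that of actin 3.67 and 2.09. Whether the actin part tracks the length of the cells' own RNA was not tested, nor was the cause of the raised index. Values with the index as a covariate, or without replicate 2 of parental normoxia, stand beside some of the results below. As group means are fitted, the slope of the covariate comes from the spread of the index within groups. That spread was largest in parental normoxia (SD 0.99), through replicate 2, and 0.017 to 0.41 in the other groups. Values with the covariate therefore lean on that array. Separate cultures are not named for the replicates, so the p-values reflect the spread among these samples alone, and that may be technical, while 3 arrays per group limit the precision.

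Promoters are shown for 3 genes on which the comparisons below turn: AEN, TIGAR and CDKN1A, the classical p53 target. AEN fell further in hypoxic parental cells than in hypoxic ESR2 cells. TIGAR fell in hypoxic parental cells and did not fall past the threshold in hypoxic ESR2 cells. Each window runs from 250 bases before to 50 after the RefSeq start of the gene on GRCh38.p14, all 3 on the plus strand and printed 5′ to 3′. They are chr15:88621090-88621389 for AEN, chr12:4320963-4321262 for TIGAR and chr6:36678464-36678763 for CDKN1A. Positions count from the start of the gene. Capitals mark matches to the p53 decamer, the consensus unit of p53 binding, on either strand, and to the hypoxia response core, ACGTG or GCGTG, on either strand (reading CACGT or CACGC on the other).
AEN: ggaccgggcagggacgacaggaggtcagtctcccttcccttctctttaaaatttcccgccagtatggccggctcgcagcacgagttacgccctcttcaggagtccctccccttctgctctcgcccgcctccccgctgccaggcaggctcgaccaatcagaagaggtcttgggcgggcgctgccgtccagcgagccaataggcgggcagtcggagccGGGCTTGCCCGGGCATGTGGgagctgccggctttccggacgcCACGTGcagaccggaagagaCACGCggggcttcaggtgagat
TIGAR: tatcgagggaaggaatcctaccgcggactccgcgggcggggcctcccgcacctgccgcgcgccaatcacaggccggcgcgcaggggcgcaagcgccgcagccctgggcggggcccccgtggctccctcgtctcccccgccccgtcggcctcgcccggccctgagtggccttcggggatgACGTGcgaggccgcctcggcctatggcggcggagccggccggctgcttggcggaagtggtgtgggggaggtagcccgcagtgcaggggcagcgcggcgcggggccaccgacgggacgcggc
CDKN1A: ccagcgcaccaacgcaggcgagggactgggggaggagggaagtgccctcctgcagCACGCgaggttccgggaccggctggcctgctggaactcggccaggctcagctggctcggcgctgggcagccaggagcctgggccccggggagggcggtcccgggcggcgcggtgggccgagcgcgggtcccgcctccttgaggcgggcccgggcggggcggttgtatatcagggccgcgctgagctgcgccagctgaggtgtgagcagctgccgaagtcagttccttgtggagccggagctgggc
In AEN the first run of capitals is a pair of p53 decamers from -34 to -15 with 0 bases between them and 2 mismatches in all, and hypoxia cores lie between 9 and 14 and at 29 to 33. TIGAR holds a hypoxia core at -71 to -67 and CDKN1A at -195 to -191. Of the 31 measured members, 23 have a window. An exact p53 decamer was in 13% of these (AEN, PLK2 and RPS27) and in 6.63% of all 35114 windows. A pair with up to 13 bases between and up to 2 mismatches was in 4.35% of them, AEN alone, and in 1.46% of all. The hypoxia core was in 12 members, 52.2%, against 48.4% of all windows. The AGGTCA piece of the estrogen response element was in 8.7% against 13.8%, and the full element in 0% against 0.00285%. These are letter matches in short windows. The known p53 sites of CDKN1A lie farther upstream than this window reaches.

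The p53 target genes were more often higher than lower in ESR2 cells than in parental cells, in all 4 oxygen and estradiol settings. In normoxia 15 of 31 were higher and 2 lower (limma, Benjamini-Hochberg adjusted p under 0.05), where 18.6% of all genes passed, 9.76% higher and 8.86% lower. The members' median change was 0.22 and that of all genes -0.0061. With estradiol in normoxia 13 were higher and 3 lower, where 13.7% of all genes passed (8.45% higher, 5.22% lower), with a median of 0.19 against -0.0096. In hypoxia 17 were higher and 3 lower, against 40.4% of all genes (20.4% higher, 20% lower) and medians of 0.27 and -0.056. In hypoxia with estradiol 16 were higher and 5 lower, against 47.7% (27.8% higher, 19.8% lower) and medians of 0.32 and 0.073. The group means of the 4 comparisons come from different arrays. Their p-values rest on a spread pooled over all groups, and each sets the same ESR2 pool against the same parental line. The 4 comparisons are therefore not independent of each other. Fitting only the groups compared gave 8 higher and 1 lower in normoxia, and the share of all genes in that fit is not given here. Without replicate 2 of parental normoxia the members higher and lower numbered 13 and 2, 15 and 3, 18 and 5, and 17 and 6 in the same order. Of all genes 14.52%, 18.03%, 44.93% and 50.83% passed in these fits, in either direction. With the RNA length index as a covariate the members numbered 15 and 2, 13 and 3, 18 and 5, and 18 and 4. The shares of all genes that passed were then 15.86%, 16.07%, 42.26% and 39.68%. A change in every cell and a change in a share of the cells cannot be told apart in bulk RNA.

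**Figure D1:**
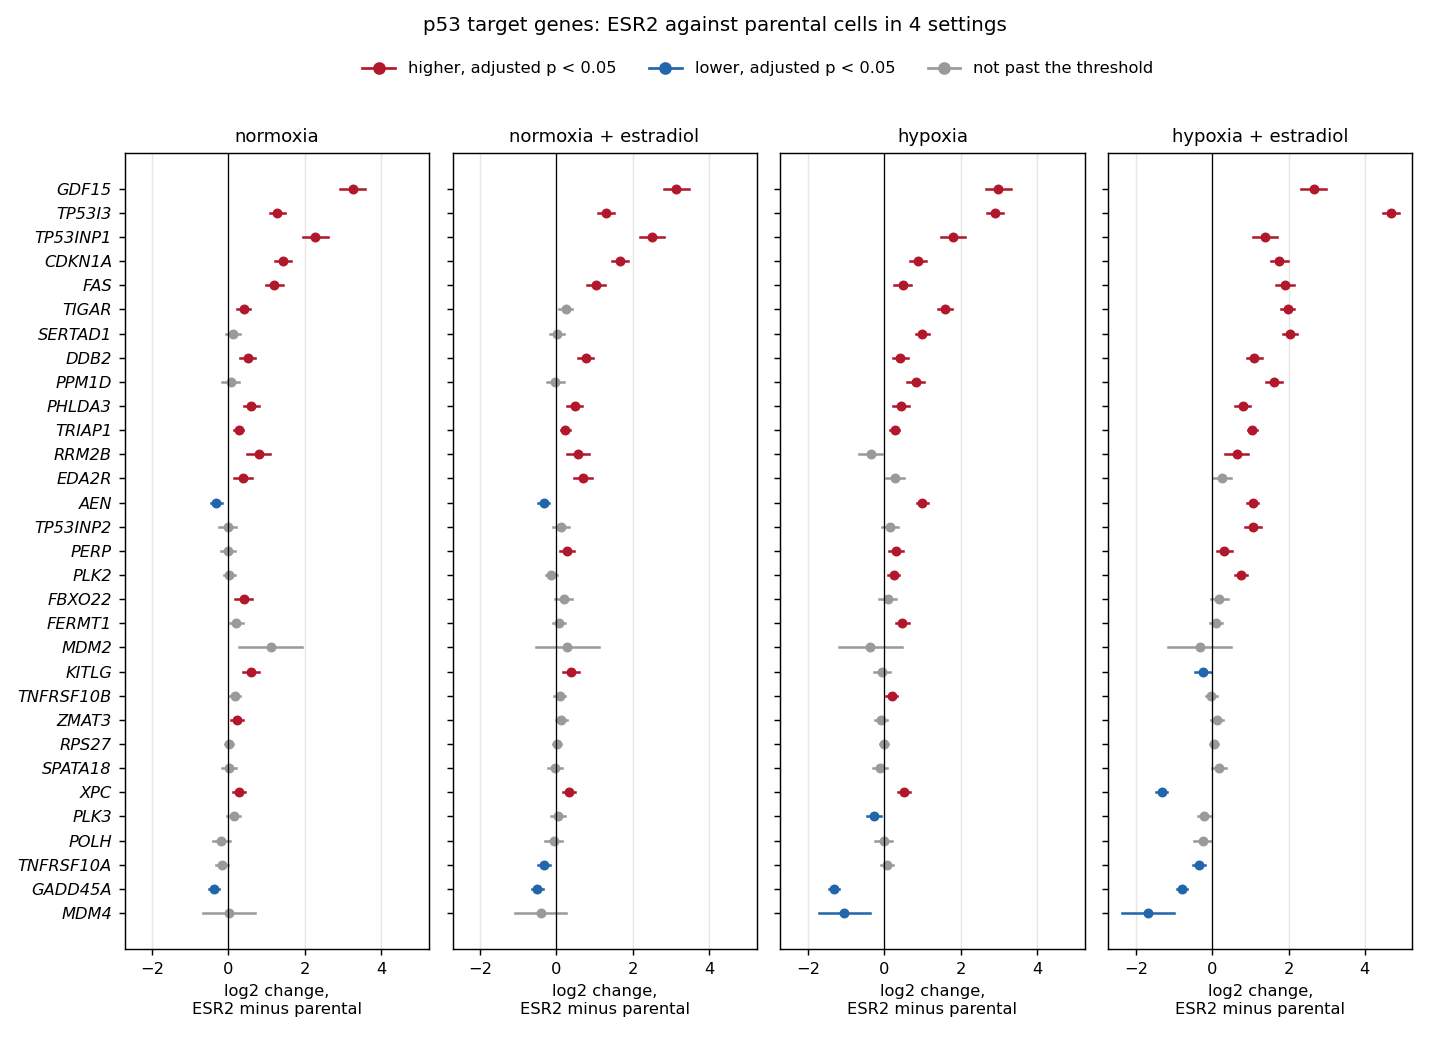
Log2 change of each of the 31 measured p53 target genes, ESR2 minus parental cells, in the 4 settings (points: limma estimate; bars: 95% confidence interval; red higher, blue lower at an adjusted p under 0.05, grey neither), ordered by the mean of the 4 changes. GDF15, TP53I3, TP53INP1, CDKN1A and FAS have the largest means, and this order is used in every panel. Within a panel the ranking can differ: in hypoxia FAS (0.48) was below TIGAR (1.59). GADD45A is to the left of 0 in every panel.

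The 8 members higher in all 4 settings were CDKN1A, GDF15, TP53I3, TP53INP1, FAS, DDB2, PHLDA3 and TRIAP1. That is 25.8% of the members, against 362 of all genes, 1.98%. Lower in all 4 was GADD45A, 3.23% of the members against 1.28% of all genes. A further 12 members were higher in at least 1 setting and lower in none, which makes 20 of this kind, 64.5% against 29.3% of all genes. Members lower in at least 1 and higher in none were GADD45A, MDM4, PLK3 and TNFRSF10A, 12.9% against 24%. AEN, XPC and KITLG were higher in some settings and lower in others. MDM2, POLH, RPS27 and SPATA18 passed in none, 12.9% of the members against 34.5% of all genes. Every member that passed had groups of arrays that did not overlap. Groups that did not overlap were found with ESR2 cells higher for 18 members and lower for 2 in normoxia, where 14.4% and 15% of all genes had them. With estradiol in normoxia the numbers were 17 and 5, against 19.4% and 17.6%. In hypoxia they were 17 and 5, against 24.1% and 26.6%, and in hypoxia with estradiol 19 and 7, against 33.8% and 22.9%.

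The genes of cell cycle arrest and growth control were led by CDKN1A, which encodes p21, the inhibitor of cyclin-dependent kinases through which p53 stops the cycle. Where values of both lines stand side by side, here and below, the parental arrays come first. CDKN1A read 7.83, 8.37 and 7.93 in parental normoxia and 9.49, 9.32 and 9.59 in ESR2 normoxia. With estradiol in normoxia the arrays read 7.83, 7.92 and 7.97 against 9.39, 9.67 and 9.65. All ESR2 arrays were above all parental arrays. The change was 1.43 (SE 0.10, adjusted p = 2.02e-09) in normoxia, a 2.69-fold difference, and 1.66 (SE 0.10, adjusted p = 1.02e-10) with estradiol. In hypoxia parental arrays read 8.66, 8.66 and 8.62 and ESR2 arrays 9.61, 9.54 and 9.44, a difference of 0.88 (SE 0.10, adjusted p = 2.65e-07). With estradiol in hypoxia they read 8.66, 8.62 and 8.71 against 10.44, 10.48 and 10.36, 1.76 (SE 0.10, adjusted p = 1.15e-12). The hypoxic ESR2 arrays with estradiol are the highest of all 24, and the change there was 1.44 (SE 0.092, adjusted p = 1.33e-11) with the RNA length index as a covariate. Its other probe set gave 0.72 to 1.95 over the 4 settings.

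GDF15, a secreted cytokine of the TGF-beta family that p53 and stress kinases switch on, had the largest change of any member in normoxia. Parental arrays read 3.81, 3.07 and 3.63 and ESR2 arrays 6.58, 7.09 and 6.62. In hypoxia they read 5.30, 5.34 and 5.30 against 8.48, 8.36 and 8.07. Both ESR2 and hypoxia came with a higher level, and no ESR2 array reached down to a parental one. The ESR2 change was 3.26 (SE 0.16, adjusted p = 3.01e-12) in normoxia and 2.99 (SE 0.16, adjusted p = 7.22e-13) in hypoxia. The parental normoxic signals lie below the array medians, so the change in normoxia is a lower limit and no fold is given. With estradiol the arrays read 3.68, 3.68 and 3.50 in parental and 6.77, 6.80 and 6.73 in ESR2 normoxia, and 5.12, 5.28 and 5.22 against 8.21, 7.68 and 7.71 in hypoxia. The changes were 3.14 and 2.66, both past the threshold.

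GADD45A, which inhibits the mitotic kinase CDK1 and takes part in repair, moved the other way. Parental arrays read 10.02, 10.10 and 10.02 in normoxia and 10.76, 10.89 and 10.88 in hypoxia. ESR2 arrays read 9.75, 9.56 and 9.71 in normoxia and 9.62, 9.55 and 9.44 in hypoxia. The parental arrays were higher in both, with no overlap, and the gap was wider in hypoxia. The changes were -0.37 (SE 0.065, adjusted p = 0.000256) and -1.31 (SE 0.065, adjusted p = 2.9e-13). With estradiol parental arrays read 9.99, 10.08 and 10.07 in normoxia and 10.81, 10.76 and 10.80 in hypoxia, and ESR2 arrays 9.57, 9.56 and 9.52 in normoxia and 9.93, 10.09 and 9.96 in hypoxia, differences of -0.49 and -0.80, both past the threshold.

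SERTAD1, a regulator of CDK4 and of E2F-dependent transcription, differed in hypoxia. There parental arrays read 6.59, 6.31 and 6.50 and ESR2 arrays 7.43, 7.41 and 7.56. With estradiol they read 6.34, 6.48 and 6.20 against 8.39, 8.45 and 8.28. The groups lay apart in both settings, by 1.0 (SE 0.086, adjusted p = 1.86e-09) and 2.04 (SE 0.086, adjusted p = 3.71e-15). In normoxia the groups were 7.14, 7.0 and 7.06 against 7.27, 7.07 and 7.25, and 7.23, 7.14 and 7.01 against 7.17, 7.18 and 7.08 with estradiol, and overlapped in both. The polo-like kinases moved less. PLK2 was 0.25 (SE 0.071, adjusted p = 0.00658) in hypoxia and 0.75 (SE 0.071, adjusted p = 3.9e-09) with estradiol, where its 4 probe sets ran from -0.46 to 0.75. PLK3 was -0.26 (SE 0.086, adjusted p = 0.0179) in hypoxia, a call lost without parental hypoxia replicate 1 (adjusted p = 0.0987) or ESR2 hypoxia replicate 3 (adjusted p = 0.0898). Without parental hypoxia replicate 1 the PLK2 call in hypoxia was lost too (adjusted p = 0.0562).

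Among the genes of apoptosis, FAS, a death receptor of the cell surface, was higher in ESR2 cells in every setting. Parental arrays read 5.07, 4.60 and 4.89 and ESR2 arrays 6.29, 5.94 and 5.93 in normoxia. In hypoxia they read 5.27, 5.28 and 5.25 against 5.87, 5.84 and 5.54, and with estradiol in hypoxia 5.38, 5.40 and 5.33 against 7.19, 7.36 and 7.28. The gap was narrowest in hypoxia without estradiol and widest with it. The changes were 1.20 (SE 0.11, adjusted p = 5.79e-08) in normoxia, 0.48 (SE 0.11, adjusted p = 0.00102) in hypoxia and 1.91 (SE 0.11, adjusted p = 7.08e-13) in hypoxia with estradiol. With estradiol in normoxia the arrays read 5.27, 5.13 and 5.36 against 6.26, 6.21 and 6.41, a difference of 1.04. Both FAS probe sets gave the same direction in all 4 settings.

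The other death receptors passed in fewer settings. TNFRSF10A, a receptor of the death ligand TRAIL, fell by 0.32 in normoxia with estradiol (adjusted p = 0.00503) and by 0.35 in hypoxia with estradiol (adjusted p = 0.000476). TNFRSF10B, the other TRAIL receptor of the list, passed only in hypoxia, at 0.19 (SE 0.069, adjusted p = 0.0286), a call lost without parental hypoxia replicate 1, parental hypoxia replicate 3 or ESR2 hypoxia replicate 1 (adjusted p = 0.0885, 0.0791 and 0.0932). Its 3 probe sets ran from -0.026 to 1.48 in hypoxia with estradiol. EDA2R, a receptor of the ectodysplasin A2 ligand, was higher in normoxia, 0.39 (SE 0.11, adjusted p = 0.0171), and with estradiol, 0.71 (SE 0.11, adjusted p = 0.000114). The former call was lost without parental normoxia replicate 3 (adjusted p = 0.0544) or ESR2 normoxia replicate 1 (adjusted p = 0.115). In hypoxia EDA2R was 0.28 (SE 0.11, adjusted p = 0.0531), and 0.32 (SE 0.11, adjusted p = 0.0241) with the index as a covariate.

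AEN, an exonuclease that p53 switches on in apoptosis, changed its direction with oxygen. In normoxia parental arrays read 8.12, 7.98 and 7.99 and ESR2 arrays 7.63, 7.68 and 7.81. In hypoxia they read 6.21, 6.12 and 6.05 against 7.11, 7.11 and 7.15. ESR2 cells were the lower group in normoxia and the higher in hypoxia, with no overlap in either. The changes were -0.32 (SE 0.068, adjusted p = 0.00172) and 1.0 (SE 0.068, adjusted p = 4.56e-11). With estradiol the arrays read 8.05, 8.03 and 7.93 against 7.71, 7.71 and 7.60 in normoxia, and 6.12, 6.29 and 6.09 against 7.19, 7.28 and 7.23 in hypoxia. The changes there were -0.33 and 1.07, both past the threshold.

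TRIAP1, a small mitochondrial protein that restrains apoptosis, was modestly higher in 3 settings and 2.07-fold higher in the fourth. Parental arrays read 9.50, 9.48 and 9.57 in normoxia and 9.14, 9.12 and 9.13 in hypoxia, and ESR2 arrays 9.80, 9.72 and 9.84 in normoxia and 9.40, 9.35 and 9.46 in hypoxia. With estradiol they read 9.68, 9.60 and 9.60 against 9.88, 9.87 and 9.84 in normoxia and 9.13, 9.18 and 9.23 against 10.20, 10.27 and 10.22 in hypoxia. The groups lay apart in each setting. The changes were 0.27, 0.24 and 0.27, and 1.05 (SE 0.055, adjusted p = 1.53e-13) in hypoxia with estradiol. PHLDA3, which blocks the survival kinase AKT at the membrane, was higher by 0.60 in normoxia (adjusted p = 0.000106), 0.49 with estradiol, 0.44 in hypoxia and 0.80 in hypoxia with estradiol. PERP, a desmosome protein that p53 induces in apoptosis, was higher in all settings but normoxia without estradiol, by 0.32 at most. Its call in normoxia with estradiol was lost without parental replicate 2 or 3, or ESR2 replicate 1 or 3, of that setting (adjusted p = 0.174, 0.0938, 0.187 and 0.0906), and that in hypoxia without ESR2 hypoxia replicate 1 (adjusted p = 0.0606). SPATA18, a mitochondrial quality-control protein, passed in none, with changes between -0.11 and 0.18.

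The metabolic targets held the largest difference of the list. TP53I3, an oxidoreductase linked to oxidative stress, read 5.75, 6.16 and 6.15 in parental normoxia and 7.37, 7.16 and 7.39 in ESR2 normoxia. In hypoxia the arrays read 5.28, 5.28 and 5.27 against 8.27, 8.07 and 8.21. With estradiol in hypoxia they read 5.23, 5.07 and 5.04 against 9.77, 9.83 and 9.76. Parental cells were lower in hypoxia than in normoxia and ESR2 cells higher, so the groups drew apart. The ESR2 change was 1.29 (SE 0.1, adjusted p = 4.49e-09) in normoxia, 2.91 (SE 0.1, adjusted p = 6.53e-16) in hypoxia and 4.68 (SE 0.1, adjusted p = 1.51e-19) in hypoxia with estradiol, a 25.6-fold difference. With the RNA length index as a covariate the last was 4.48 (SE 0.12, adjusted p = 1.96e-17). In normoxia with estradiol the arrays read 5.94, 6.16 and 6.03 against 7.15, 7.45 and 7.42, a difference of 1.30.

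TIGAR, a phosphatase that lowers glycolytic flux in favour of the pentose phosphate pathway, was between 6.81 and 7.28 on all 12 ESR2 arrays. Parental arrays read 6.58, 6.57 and 6.64 in normoxia and 5.45, 5.21 and 5.36 in hypoxia. ESR2 arrays read 7.06, 6.95 and 6.97 in normoxia and 7.01, 6.96 and 6.81 in hypoxia. The parental hypoxic arrays were the low ones. The changes were 0.40 (SE 0.085, adjusted p = 0.00188) in normoxia and 1.59 (SE 0.085, adjusted p = 8.57e-13) in hypoxia, 3.01-fold. With estradiol parental arrays read 6.70, 6.74 and 6.70 in normoxia and 5.08, 5.12 and 5.26 in hypoxia, and ESR2 arrays 6.81, 6.99 and 7.07 in normoxia and 7.16, 7.28 and 6.95 in hypoxia. The change was 1.97 (SE 0.085, adjusted p = 5.86e-15) in hypoxia, and in normoxia 0.25 (SE 0.085, adjusted p = 0.0553), with groups that did not overlap. The other TIGAR probe set gave 2.66 in hypoxia and 2.71 with estradiol. RRM2B, the p53-induced subunit of ribonucleotide reductase, was 0.80 (SE 0.14, adjusted p = 0.000378) in normoxia and 0.64 (SE 0.14, adjusted p = 0.000717) in hypoxia with estradiol on its brightest probe set. The latter was 0.94 (SE 0.17, adjusted p = 6.13e-05) with the index as a covariate. Of its 9 probe sets 7 had the opposite sign in normoxia, at -0.17 to -0.016, with mean signals of 3.19 to 4.08. The brightest and the next brightest, at mean signals of 7.92 and 6.53, gave 0.80 and 0.56 there. The mean of all 9 was -0.17 in hypoxia with estradiol. In hypoxia without estradiol RRM2B was -0.36 (SE 0.14, adjusted p = 0.052), with all 9 probe sets below 0, from -0.88 to -0.23. That change passed without parental normoxia replicate 2 (adjusted p = 0.0137) and with the index as a covariate, -0.42 (SE 0.13, adjusted p = 0.0102).

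TP53INP1, a stress protein of the nucleus and autophagosomes that promotes p53 phosphorylation, was among the largest rises. Parental arrays read 5.05, 4.66 and 4.80 in normoxia and 5.73, 5.89 and 5.87 in hypoxia. ESR2 arrays read 7.13, 7.25 and 6.96 in normoxia and 7.99, 7.70 and 7.22 in hypoxia. No ESR2 array was as low as a parental one. The changes were 2.28 (SE 0.15, adjusted p = 6.32e-10) and 1.80 (SE 0.15, adjusted p = 2e-09). With estradiol the arrays read 4.63, 4.88 and 4.70 against 7.04, 7.29 and 7.42 in normoxia and 5.86, 5.88 and 6.02 against 7.36, 7.55 and 6.98 in hypoxia, differences of 2.51 and 1.38. The second probe set of the gene, which is dimmer, gave 0.047, -0.055, -0.30 and 0.27 in the 4 settings, so the rise was seen on 1 of its 2 probe sets. TP53INP2, an autophagy protein related to TP53INP1, differed in hypoxia with estradiol, where parental arrays read 5.58, 5.51 and 5.41 and ESR2 arrays 6.68, 6.58 and 6.45, 1.07 (SE 0.10, adjusted p = 4.59e-09). In hypoxia without estradiol the arrays read 5.75, 5.62 and 5.74 against 5.73, 6.0 and 5.81, in normoxia 5.29, 5.80 and 5.42 against 5.50, 5.44 and 5.51, and in normoxia with estradiol 5.13, 5.34 and 5.30 against 5.26, 5.44 and 5.45, with overlap in these 3 settings. Its other probe set gave 0.28 in hypoxia with estradiol.

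The nucleotide excision repair factors DDB2 and XPC, which find damaged bases, moved together in 3 settings and apart in the fourth. DDB2 read 6.77, 6.98 and 6.65 in parental and 7.43, 7.13 and 7.35 in ESR2 normoxia, and 6.38, 6.57 and 6.37 against 6.97, 6.86 and 6.75 in hypoxia. With estradiol it read 6.36, 6.39 and 6.62 against 7.19, 7.27 and 7.21 in normoxia, and 6.53, 6.48 and 6.50 against 7.56, 7.71 and 7.56 in hypoxia. Its ESR2 arrays were higher in each setting, by 0.50, 0.77, 0.42 and, in hypoxia with estradiol, 1.11 (SE 0.092, adjusted p = 4.74e-10). XPC read 7.03, 7.19 and 7.04 against 7.40, 7.26 and 7.41 in normoxia, and 7.05, 7.07 and 7.02 against 7.48, 7.51 and 7.67 in hypoxia. With estradiol it read 7.01, 7.09 and 7.14 against 7.24, 7.56 and 7.43 in normoxia, and 7.21, 7.17 and 7.22 against 5.84, 5.93 and 5.85 in hypoxia. The 3 hypoxic ESR2 arrays with estradiol were the lowest of all 24, and all other ESR2 groups were above their parental groups. The changes were 0.27 (SE 0.075, adjusted p = 0.014) in normoxia, 0.33 with estradiol, 0.51 (SE 0.075, adjusted p = 7.45e-06) in hypoxia and -1.33 (SE 0.075, adjusted p = 6.23e-13) in hypoxia with estradiol. The last was -1.50 (SE 0.083, adjusted p = 1.65e-12) with the index as a covariate and -0.55 on the other probe set. The call in normoxia was lost without ESR2 normoxia replicate 1 (adjusted p = 0.061) or 3 (adjusted p = 0.0525). POLH, the polymerase that copies past ultraviolet damage, passed in none, and its 4 probe sets ran from -0.018 to 1.10 in hypoxia.

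The genes that feed back on p53 did not move as 1 group. MDM2 read 7.61, 4.77 and 7.34 in parental normoxia and 7.71, 7.87 and 7.47 in ESR2 normoxia. In hypoxia it read 7.20, 7.42 and 7.17 against 7.01, 6.92 and 6.76, and with estradiol 7.34, 7.35 and 7.52 against 7.32, 7.14 and 6.77. With estradiol in normoxia it read 7.45, 7.43 and 7.41 against 7.68, 7.72 and 7.75. Replicate 2 of parental normoxia is far below every other array. The groups overlapped in normoxia, ESR2 cells were above parental cells in normoxia with estradiol, and below them in both hypoxic settings. No change passed: 1.11 (SE 0.40, adjusted p = 0.0551) in normoxia, 0.29 with estradiol, -0.37 in hypoxia and -0.33 in hypoxia with estradiol. Without that replicate the value in normoxia was 0.21 (adjusted p = 0.33) and both in hypoxia passed, with adjusted p = 0.0121 and, with estradiol, 0.0209. Without parental normoxia replicate 1 or 3 the normoxia change was 1.63 and 1.49 (adjusted p = 0.00344 and 0.0144). With the index as a covariate the changes in hypoxia were -0.66 (SE 0.22, adjusted p = 0.0201) and, with estradiol, 1.04 (SE 0.29, adjusted p = 0.00533). The 11 probe sets of MDM2 ran from -0.038 to 1.11 in normoxia and from -1.23 to 0.46 in hypoxia with estradiol.

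MDM4, the partner of MDM2 that covers the activation domain of p53, was lower in hypoxic ESR2 cells. Parental hypoxic arrays read 6.61, 6.78 and 6.77 and ESR2 hypoxic arrays 5.78, 5.65 and 5.59. With estradiol they read 6.56, 6.62 and 6.81 against 4.19, 5.61 and 5.14. The groups lay apart in both settings, at -1.05 (SE 0.32, adjusted p = 0.0126) and -1.68 (SE 0.32, adjusted p = 0.000128). The latter was -1.19 (SE 0.40, adjusted p = 0.0206) with the index as a covariate. In normoxia the arrays read 6.77, 4.91 and 6.48 against 6.50, 5.73 and 5.98, and with estradiol 6.50, 6.52 and 6.58 against 6.02, 6.11 and 6.23. The former groups overlapped and the latter did not, and neither change passed. All 6 probe sets were below 0 in hypoxia, from -1.05 to -0.28. PPM1D, the phosphatase Wip1 that takes the activating marks off p53 and its kinases, was higher in the same hypoxic groups. Parental arrays read 8.68, 8.68 and 8.69 and ESR2 arrays 9.67, 9.47 and 9.37, and with estradiol 8.81, 8.76 and 8.78 against 10.42, 10.45 and 10.36. Each ESR2 array was above each parental one, with differences of 0.82 (SE 0.10, adjusted p = 8.32e-07) and 1.63 (SE 0.10, adjusted p = 4.65e-12). In normoxia parental arrays read 9.09, 8.53 and 9.12 and ESR2 arrays 9.04, 8.97 and 8.92, and with estradiol 9.03, 9.08 and 9.04 against 8.96, 9.03 and 9.10, with overlap in both. Its 4 probe sets gave 0.82 to 1.09 in hypoxia. FBXO22, a ubiquitin ligase subunit, was 0.40 (SE 0.11, adjusted p = 0.0111) in normoxia, and 0.19 (adjusted p = 0.0637) without parental normoxia replicate 2. In hypoxia with estradiol FBXO22 was 0.19 (SE 0.11, adjusted p = 0.167), and 0.49 (SE 0.11, adjusted p = 0.000521) with the index as a covariate. ZMAT3, an RNA-binding protein that p53 induces, was 0.22 (SE 0.074, adjusted p = 0.0411) in normoxia without estradiol, at a signal near 3. It lost its call without any single array of that setting other than ESR2 replicate 3 (adjusted p = 0.0626 to 0.223).

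Of the remaining members, RPS27 stayed between 12.88 and 12.98 on all 24 arrays. It encodes a ribosomal protein, and its relative RPS27L, the established p53 target, was higher in all 4 settings, by 0.39 in normoxia (adjusted p = 0.000133) and 0.59 in hypoxia with estradiol. KITLG, the ligand of the KIT receptor, was 0.59 (SE 0.097, adjusted p = 0.000122) in normoxia and -0.24 (SE 0.097, adjusted p = 0.044) in hypoxia with estradiol, where the mean of its 4 probe sets was 0.45 and the value with the RNA length index as a covariate was -0.032 (SE 0.11, adjusted p = 0.855). The latter call was lost without any single array of the groups compared (adjusted p = 0.0532 to 0.106), and that in normoxia with estradiol, 0.38, without parental replicate 2 of that setting (adjusted p = 0.0502). FERMT1, an integrin activator of epithelia, was 0.47 (SE 0.081, adjusted p = 4.61e-05) in hypoxia and passed in no other setting.

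**Figure D2:**
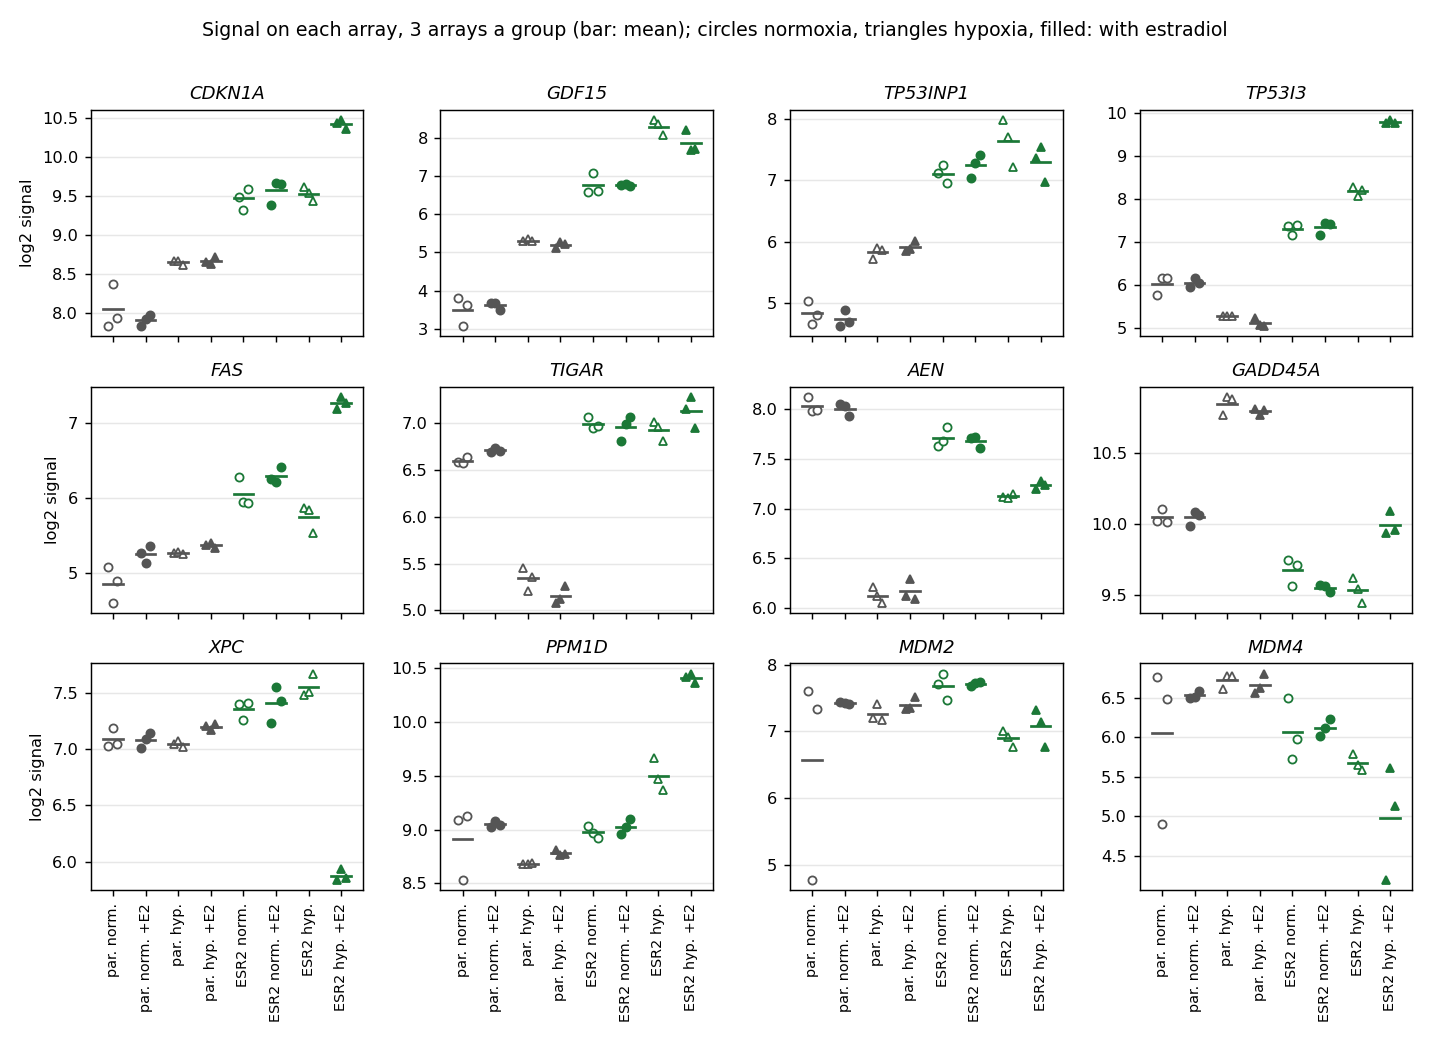
Log2 signal of 12 p53 target genes on each of the 24 arrays, by group (grey parental, green ESR2; circles normoxia, triangles hypoxia; filled symbols with estradiol; bars: mean of 3 arrays). TIGAR and AEN are lowest in hypoxic parental cells, XPC is lowest and CDKN1A, TP53I3, FAS and PPM1D highest in hypoxic ESR2 cells with estradiol, and replicate 2 of parental normoxia reads 4.77 for MDM2.

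Hypoxia moved the p53 target genes both ways in both kinds of cells. In parental cells 10 members rose and 9 fell, where 37.5% of all genes passed (16.4% higher, 21.2% lower), and the median was 0.082 against 0.0033 over all genes. The rises were led by GDF15, 1.81 (SE 0.16, adjusted p = 1.66e-09), TP53INP1, 0.99, and GADD45A, 0.80. The falls were led by AEN, -1.90 (SE 0.068, adjusted p = 3.75e-16), TIGAR, -1.26 (SE 0.085, adjusted p = 2.22e-11), and TP53I3, -0.74. The calls of RRM2B, FBXO22 and EDA2R were lost without parental normoxia replicate 2 (adjusted p = 0.258, 0.274 and 0.144) and without parental hypoxia replicate 2 or 3. Without parental normoxia replicate 2, PPM1D fell by 0.43 (adjusted p = 3.24e-05) and TP53INP2 was 0.35 higher (adjusted p = 0.00278). Without that replicate 9 members rose and 9 fell, where 37.5% of all genes passed. In ESR2 cells 10 rose and 9 fell, where 32.6% of all genes passed (14.4% higher, 18.2% lower). GDF15 rose by 1.54, PERP by 0.90 and TP53I3 by 0.88. RRM2B, -0.75, and AEN, -0.59, had the largest falls that passed. MDM2, -0.79 (SE 0.40, adjusted p = 0.139), passed without parental normoxia replicate 2 (adjusted p = 8.00e-06). With estradiol 7 rose and 7 fell in parental cells, where 34.8% of all genes passed (16.1% higher, 18.7% lower). In ESR2 cells with estradiol 13 rose and 8 fell, where 52.3% did (29.6% higher, 22.6% lower).

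An interaction term tested the difference between the hypoxia changes of the ESR2 and the parental line. Without estradiol 12 members passed, 5 more positive and 7 more negative, where 30.7% of all genes did (16.4% and 14.3%). The change was more positive in ESR2 cells for TP53I3, by 1.62 (SE 0.14, adjusted p = 7.73e-09), AEN, 1.32 (SE 0.096, adjusted p = 5.87e-10), TIGAR, 1.19 (SE 0.12, adjusted p = 6.64e-08), SERTAD1, 0.87, and PPM1D, 0.76. All but PPM1D fell past the threshold in hypoxic parental cells. PPM1D was at -0.23 there (adjusted p = 0.0834), and fell past it without parental normoxia replicate 2 or with the index as a covariate. The hypoxia change was more negative in ESR2 cells for RRM2B, -1.16 (SE 0.21, adjusted p = 0.000118), GADD45A, -0.93 (SE 0.092, adjusted p = 4.82e-08), FAS, -0.72, KITLG, -0.65, CDKN1A, -0.54, PLK3, -0.40, and ZMAT3, -0.30, whose call was lost without any of 5 single arrays (adjusted p = 0.0577 to 0.106). Of these GADD45A rose by 0.80 in parental cells and was at -0.14 (SE 0.065, adjusted p = 0.114) in ESR2 cells (a fall past the threshold without ESR2 normoxia replicate 2, adjusted p = 0.0405), and CDKN1A rose by 0.60 and was at 0.063 (SE 0.10, adjusted p = 0.684). The value of KITLG is that of its brightest probe set. Its other probe sets gave ESR2 changes of 0.13 to 0.48 in normoxia and 0.33 to 0.83 in hypoxia, a difference the other way on each. The interaction of MDM2, -1.48 (SE 0.56, adjusted p = 0.0503), did not pass, and it was -0.58 (adjusted p = 0.0126) without parental normoxia replicate 2. It was -1.99 and -1.86 without replicate 1 or 3 of that group (adjusted p = 0.00406 and 0.0135). With estradiol 16 passed, 10 more positive and 6 more negative, where 38.6% of all genes did (20.6% and 18.1%), led by TP53I3, 3.38 (SE 0.14, adjusted p = 2.18e-14), SERTAD1, 2.02, TIGAR, 1.73, XPC, -1.65, and PPM1D, 1.65. With the index as a covariate 9 were more positive and 5 more negative, where 35.4% of all genes passed. The interaction is the ESR2 change in hypoxia minus that in normoxia, so it uses the same 4 groups as those comparisons.

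**Figure D3:**
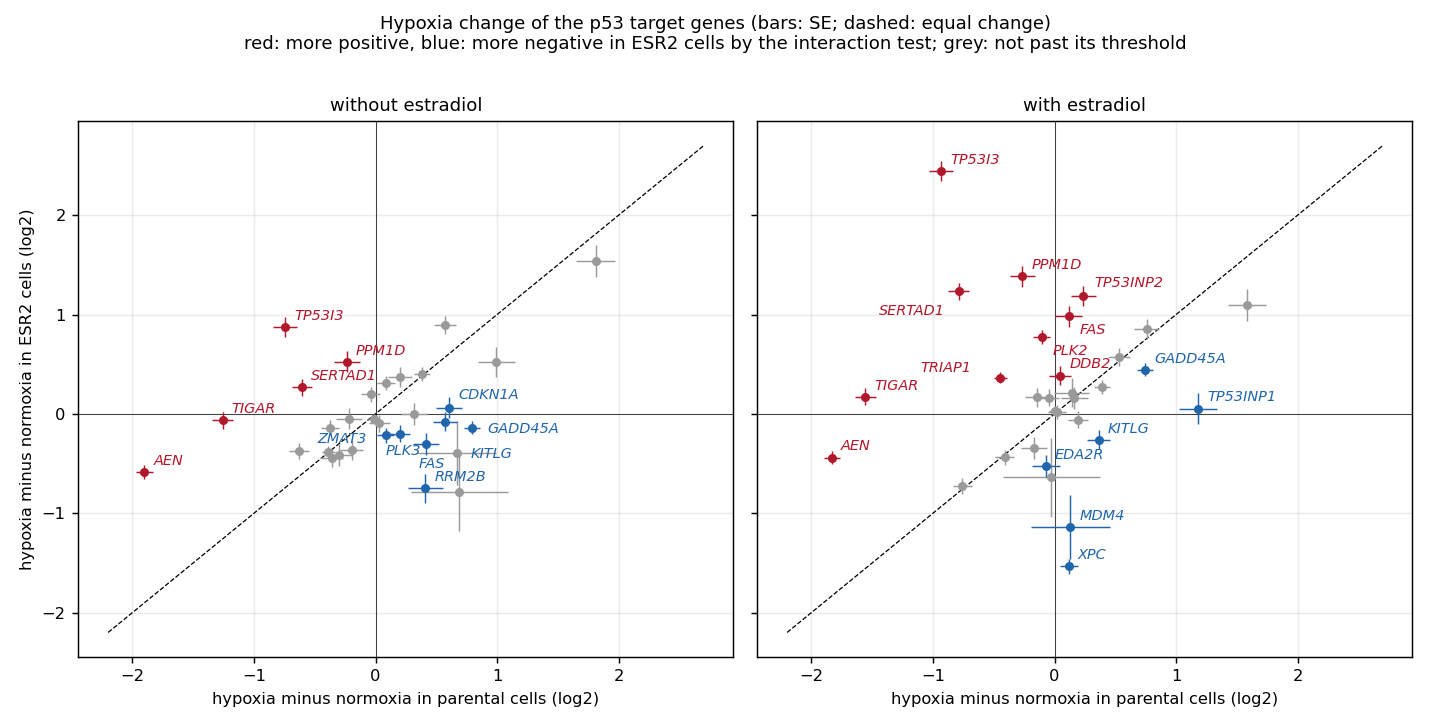
Hypoxia change (log2, hypoxia minus normoxia) of the 31 members in parental cells (horizontal) and in ESR2 cells (vertical), without and with estradiol (bars: SE; dashed line: equal change; named and coloured: interaction past the threshold). AEN and TIGAR lie far to the left of 0 and closer to 0 vertically, and TP53I3 lies to the left and above 0.

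With estradiol, members passed the threshold in hypoxic ESR2 cells, as most genes did there. In parental cells 0 of 31 passed in normoxia and 0 in hypoxia, where 0.011% and 0.0164% of all genes passed, and 5 and 1 members had an unadjusted p under 0.05. Leaving out parental normoxia replicate 1 gave 2 in normoxia, MDM2 and FAS (adjusted p = 0.0482 and 0.0382), and with array weights FAS alone passed. In normoxic ESR2 cells 0 passed, as 0% of all genes did, with 3 members at an unadjusted p under 0.05. In hypoxic ESR2 cells 14 rose and 6 fell, where 57% of all genes passed (35.4% higher, 21.6% lower), with a median of 0.16 against 0.12 over all genes. The share of members that passed was 64.5%, near that of all genes. Named by size, TP53I3 rose by 1.60 (SE 0.1, adjusted p = 6.35e-12), FAS by 1.53 (SE 0.11, adjusted p = 6.41e-11) and RRM2B by 1.03. PPM1D, SERTAD1 and CDKN1A rose by 0.91, 0.91 and 0.89, and TRIAP1 by 0.83. XPC had the largest fall, -1.68 (SE 0.075, adjusted p = 3.9e-14).

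The ESR2 hypoxic group with estradiol is also the one with the raised RNA length index. Its range there, 3.42 to 4.01, does not overlap that without estradiol, 2.0 to 2.19. Index and estradiol therefore cannot be fully told apart in these cells. With the index as a covariate 13 members rose and 3 fell, where 37.8% of all genes passed. Then CDKN1A was at 0.46 (SE 0.11, adjusted p = 0.00181), TP53I3 at 1.33 (SE 0.14, adjusted p = 7.31e-08), FAS at 1.71 (SE 0.16, adjusted p = 2.87e-08) and XPC at -1.92 (SE 0.098, adjusted p = 3.81e-12). GDF15, -0.44 (SE 0.16, adjusted p = 0.0223) without the covariate, was at 0.24 (SE 0.16, adjusted p = 0.253) with it, and its call was lost without any of 4 single arrays of these groups (adjusted p = 0.0656 to 0.105), and MDM2 went from 0.18 to 2.07 (SE 0.34, adjusted p = 3.81e-05). The interaction of estradiol with ESR2 passed for 0 members in normoxia, where 0% of all genes passed and 1 member had an unadjusted p under 0.05, and for 16 in hypoxia, 13 more positive and 3 more negative, where 42% of all genes passed (23.4% and 18.6%). With the covariate that interaction was more positive for 13 and more negative for 2, where 32.8% of all genes passed.

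**Figure D4:**
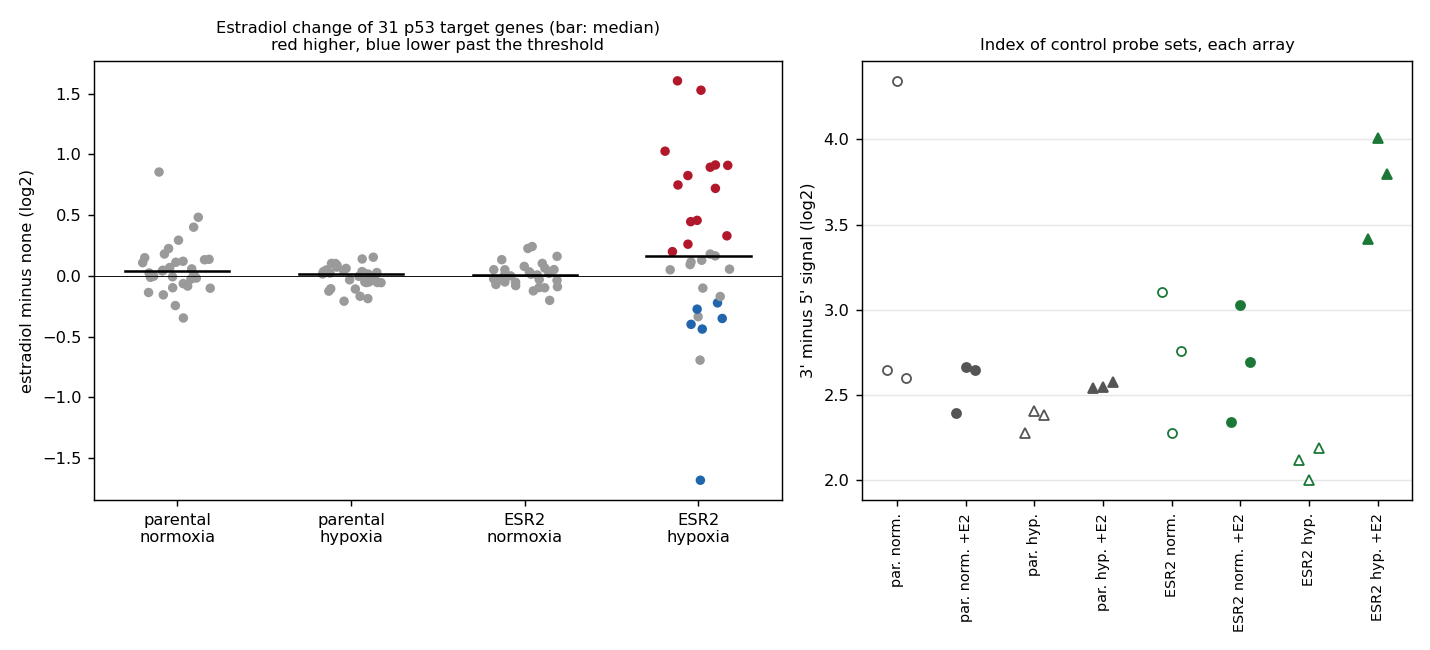
Left, log2 change of the 31 members with estradiol in each of 4 settings (points: genes; bar: median; red and blue: past the threshold, higher and lower). Right, the RNA length index (3′ minus 5′ signal) on each array; the 14 rises and 6 falls on the left are all in hypoxic ESR2 cells, the group whose index lies between 3.42 and 4.01 on the right.

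Further genes of the pathway came from lists of regulators, other targets and genes repressed through p21. Of 34 further p53 targets, 7 were higher and 4 lower in ESR2 cells in normoxia, 18 and 5 in hypoxia, and 20 and 5 in hypoxia with estradiol, with medians of 0.047, 0.22 and 0.34. In normoxia with estradiol 9 were higher and 3 lower. Of all genes 9.76% were higher and 8.86% lower in normoxia, 8.45% and 5.22% with estradiol, 20.4% and 20% in hypoxia, and 27.8% and 19.8% in hypoxia with estradiol, which holds for each list here. BAX, the pore-forming protein of mitochondrial apoptosis, was higher by 1.04 (SE 0.16) in normoxia and 2.29 in hypoxia, and its other probe set gave 0.62 and 0.58. SESN1, a sestrin that restrains mTORC1, was higher by 1.10 and 0.62. The BH3-only killers were not higher in hypoxia: PMAIP1 was at -0.47 (adjusted p = 0.000461) and BBC3 at -0.23 (adjusted p = 0.119). CCNG1, cyclin G1, passed in normoxia, 0.65, and in no other setting. DRAM1, an autophagy protein, was higher by 0.95 in hypoxia.

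Of 20 cell cycle genes that p53 represses through p21 and the DREAM complex, 1 was higher and 8 lower in ESR2 cells in normoxia, with a median of -0.15. The falls were led by CDC25C, -0.85, and CDC25A, -0.51, phosphatases that activate cyclin-dependent kinases, with CCNB2, -0.36, and BIRC5, -0.32. In hypoxia 8 were higher and 5 lower, led by CDC25A, 1.49, and CCNB1, 0.57, while CDC25C stayed lower, -0.58. In parental cells hypoxia itself lowered 10 of the 20, CDC25A at -1.58, and raised 3, where 16.4% of all genes were higher and 21.2% lower. Without parental normoxia replicate 2, or with the RNA length index as a covariate, 11 were lowered and 1 raised. Of 23 regulators of p53, 1 was higher and 1 lower in normoxia, ATM, the kinase of double-strand breaks, at 0.57, and the acetyltransferase CREBBP at -0.31. Without parental normoxia replicate 2, or with the index as a covariate, 1 was higher and 0 lower. In hypoxia 12 were higher and 2 lower, with TP53BP1 at 1.03, EP300 at 1.26 and SIRT1 at 0.87. In hypoxia with estradiol 5 were higher and 9 lower, led by HIPK2, a kinase of p53, at -2.65, and CREBBP at -1.61. Of 15 genes of the ATF4 stress response, to which GDF15 is also known to respond, 2 were higher and 9 lower in normoxia, with DDIT3 at -0.95, TRIB3 at -0.44 and DDIT4 at 0.87. Without parental normoxia replicate 2 these counts were 2 and 6. In hypoxia 7 were higher and 5 lower, with DDIT3 at -1.23 and STC2 at -0.76, and with estradiol 6 and 5.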

How the data were processed

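Affymetrix HG-U219 arrays of 24 HCT116 samples, 8 groups of 3, were used. The deposited values are log2 signals made with RMA and the affy package, per the submitters' processing notes, whose versions were not given in the sources used here. The table held 49386 probe sets, 93 of them controls. Of the rest, 45253 had 1 gene symbol, 1327 several and 2713 none in the platform annotation, and the brightest probe set stood for each of 18239 genes. Symbols were matched by name. limma 3.58.1 in R 4.3.3 fitted 8 group means (lmFit, eBayes, 16 residual degrees of freedom) and 16 comparisons, with Benjamini-Hochberg adjustment over all genes and a threshold of 0.05. On simulated data for 18239 genes in ESR2 against parental normoxia, 85 of 100 genes changed by 0.5 and 99 of 100 changed by 1 were recovered. The members and the 4 further gene lists were chosen with earlier results of these data known. Any member may be named, with all arrays given for CDKN1A, MDM2, GDF15 and members past the threshold with a log2 change of at least 1 in ESR2 against parental cells. Of each further list at most the 4 genes with the smallest p in a comparison are named, plus BAX, BBC3, PMAIP1, SESN1, SESN2, CCNG1 and RPS27L. Alternatives were 11 settings and leaving out each array in turn. Promoter windows are from RefSeq, GRCh38.p14.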

Additional observations from a re-analysis of the deposited data

Results flagged for a closer look

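Each result here is an effect that differed between parental and ESR2 cells by limma's interaction test at an adjusted p under 0.05, given as a log2 difference.

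The hypoxia change without estradiol differed between ESR2 and parental cells for 12 of the 31 measured p53 target genes, 38.7%. Of all genes 30.7% passed, 16.4% more positive and 14.3% more negative, against 16.1% and 22.6% of the members. The difference was 1.62 for TP53I3, 1.32 for AEN, 1.19 for TIGAR, 0.87 for SERTAD1 and 0.76 for PPM1D, more positive in ESR2 cells. It was -0.30 for ZMAT3, -0.40 for PLK3, -0.54 for CDKN1A, -0.65 for KITLG, -0.72 for FAS, -0.93 for GADD45A and -1.16 for RRM2B, more negative in ESR2 cells. These are values of the brightest probe sets. The other KITLG probe sets gave ESR2 changes of 0.13 to 0.48 in normoxia and 0.33 to 0.83 in hypoxia, the other way. That of ZMAT3 gave -0.080 and -0.0096, also the other way. The remaining genes named had the same direction on every probe set.

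With estradiol, the hypoxia change differed between the kinds of cells for 16 of the 31 measured p53 target genes, 51.6%. Of all genes 38.6% passed, 20.6% more positive and 18.1% more negative, against 32.3% and 19.4% of the members. The difference was 3.38 for TP53I3, 2.02 for SERTAD1, 1.73 for TIGAR, 1.65 for PPM1D, 1.39 for AEN, 0.95 for TP53INP2, 0.88 for PLK2, 0.87 for FAS, 0.81 for TRIAP1 and 0.34 for DDB2, more positive in ESR2 cells. It was -0.30 for GADD45A, -0.45 for EDA2R, -0.62 for KITLG, -1.13 for TP53INP1, -1.27 for MDM4 and -1.65 for XPC, more negative in ESR2 cells. These are values of the brightest probe sets, and some others went the other way. With estradiol, the other TP53INP1 probe set gave ESR2 changes of -0.055 in normoxia and 0.27 in hypoxia. That of EDA2R gave 0.072 and 0.11. Those of KITLG gave -0.043 to 0.19 and 0.33 to 1.23. Those of PLK2 gave -0.35 to -0.19 and -0.46 to -0.33. The remaining genes named had the same direction on every probe set.

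In hypoxia, the estradiol change differed between ESR2 and parental cells for 16 of the 31 measured p53 target genes, 51.6%. Of all genes 42% passed, 23.4% more positive and 18.6% more negative, against 41.9% and 9.68% of the members. The difference was 1.77 for TP53I3, 1.42 for FAS, 1.04 for SERTAD1, 1.00 for RRM2B, 0.93 for TP53INP2, 0.88 for CDKN1A, 0.81 for PPM1D, 0.78 for TRIAP1, 0.69 for DDB2, 0.51 for GADD45A, 0.50 for PLK2, 0.39 for TIGAR and 0.36 for PHLDA3, more positive in ESR2 cells. It was -0.37 for FERMT1, -0.43 for TNFRSF10A and -1.83 for XPC, more negative in ESR2 cells. In the group of hypoxic ESR2 cells with estradiol, which these values and those before them share, the RNA length index was also raised. So was the mean of the leukocyte markers, mainly through CD68 and LYZ. With the index as a covariate, 9 members were more positive and 5 more negative for the hypoxia difference with estradiol, and 13 and 2 for the estradiol difference in hypoxia. Of all genes 35.4% and 32.8% passed in these fits, in either direction. The part of the leukocyte markers was not tested. The values of single genes are again those of the brightest probe sets. In hypoxia, the other PLK2 probe sets gave ESR2 changes of 0.54 to 0.91 without estradiol and -0.46 to -0.33 with it, the other way. The dimmer FERMT1 probe sets gave -0.19 to 0.047 and 0.050 to 0.27, also the other way. RRM2B and PPM1D each had a probe set of the other direction too.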

How the results depend on the processing

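The counts of p53 target genes past the threshold stayed within 1.5 times of the reported ones under the alternatives run, with these exceptions. Fitting only the groups compared gave 9 members in place of 17 for ESR2 against parental cells in normoxia without estradiol. Array weights gave 1 in place of 0 for estradiol in normoxic parental cells. Without single replicates the counts for ESR2 against parental cells ranged from 14 to 18 in normoxia, 14 to 18 with estradiol, 17 to 23 in hypoxia and 20 to 23 in hypoxia with estradiol. For hypoxia they ranged from 16 to 20 in parental cells, 14 to 17 with estradiol, 15 to 20 in ESR2 cells and 18 to 23 with estradiol, and for the hypoxia interaction from 11 to 15 and 13 to 18 with estradiol. For estradiol they ranged from 0 to 2 in normoxic parental cells and 17 to 22 in hypoxic ESR2 cells, and for its interaction in hypoxia from 15 to 18. In the other comparisons with estradiol they were 0 without any single array.

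Replicate numbers did not pair the samples: same-numbered arrays had deviations from their group means that correlated between -0.288 and 0.287. With the replicate number as a block, 17, 16, 20 and 20 members passed in the 4 comparisons of ESR2 with parental cells, 19, 14, 19 and 21 for hypoxia, 12 and 15 for its interaction, 0, 0, 0 and 19 for estradiol and 0 and 16 for its interaction. No count moved by over 1.5 times.

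Of single members' values, 23 reversed. With all probe sets of a gene averaged in place of the brightest, PERP became 0.28 in ESR2 against parental normoxia, and in hypoxia POLH became 0.40 and KITLG 0.37. In hypoxia with estradiol KITLG became 0.45, TNFRSF10B 0.81, RRM2B -0.17 and PLK2 -0.10. For hypoxia in ESR2 cells POLH became 0.26 and KITLG 0.37, and with estradiol KITLG 0.35 and PLK2 -0.022. For the hypoxia interaction KITLG became 0.0017, and with estradiol KITLG 0.27, TNFRSF10B 0.92, RRM2B -0.26 and PERP -0.41. For estradiol in hypoxic ESR2 cells TNFRSF10B became 0.70 and PLK2 -0.72, and for its interaction TNFRSF10B 0.61, PLK2 -0.67 and FERMT1 0.0014. These differ because probe sets of 1 gene disagree. With the RNA length index as a covariate MDM2 became 1.04 in ESR2 against parental hypoxia with estradiol and GDF15 0.24 for estradiol in hypoxic ESR2 cells. The slope of the covariate leans on replicate 2 of parental normoxia, which reads 4.77 for MDM2 and 3.07 for GDF15, the lowest of its group for both. The cause of these 2 reversals was not tested. Of the other values, 16696 kept direction and side of the threshold, 228 lost the threshold and 242 gained it. The signal of dim probe sets such as that of ZMAT3 is near background, which limits what its change can show, and 3 arrays a group limit all values.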
